A study of Mus musculus with 4 samples.

Results

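The genes of the Ikaros family and of the cereblon ubiquitin ligase were followed across the bone marrow cells of mice carrying myeloma. They were Ikzf1, Ikzf2, Ikzf3, Ikzf4, Ikzf5, Crbn, Ddb1, Cul4a and Cul4b, taken by their symbols, and all 9 were found among the 32285 genes of the deposited tables. The comparison was between 2 vehicle mice and 2 mice given 10 mg/kg purinostat mesylate (PM), an inhibitor of class I and class IIb histone deacetylases, with marrow collected 24 h after treatment. Every mouse of both groups belonged to the 5TMM model: 5TGM1-luc cells, a mouse myeloma line, had been injected intravenously into C57BL/KawRij mice (the spelling of the study's methods) at 6 weeks of age, and treatment followed 3 weeks later. Such hosts keep their own immune and plasma cells beside the injected line, and red cells were lysed before loading. Each mouse gave 1 droplet-based single-cell library with 3′ capture, so the mouse was the replicate throughout (n = 2 per group).

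Ikaros (Ikzf1), Helios (Ikzf2), Aiolos (Ikzf3), Eos (Ikzf4) and Pegasus (Ikzf5) are zinc finger transcription factors that pair with one another and recruit histone deacetylase complexes to DNA. Ikaros is required for lymphocyte development, Aiolos for B cell and plasma cell maturation, and Helios and Eos mark regulatory T cells. Cereblon (Crbn) is the substrate receptor of a cullin-RING ligase, in which the adaptor Ddb1 holds it to the scaffold Cul4a or Cul4b. In human cells, thalidomide analogs such as lenalidomide and pomalidomide bind cereblon and direct the ligase to Ikaros and Aiolos, which myeloma cells depend on. No such drug was given to these mice, and whether mouse cereblon acts in this way was not tested.

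The contact between drug-bound cereblon and Ikaros or Aiolos lies in the second zinc finger, so the coding DNA of that finger is shown to place the 5 factors beside each other. For the other factors it is the finger whose translation was most like that of Ikzf1, found in the longest coding transcript of each gene. Capitals mark the codons of the 2 cysteines and 2 histidines that hold the zinc ion, and each sequence reads 5′ to 3′ on the gene's own strand of GRCm38 (GENCODE annotation). The stretch of Ikzf1 is at chr11:11754024-11754086, plus strand, exon 6. That of Ikzf2 is at chr1:69570581-69570643, minus strand, exon 5. For Ikzf3 it is chr11:98488940-98489002, minus strand, exon 5, for Ikzf4 chr10:128640229-128640291, minus strand, exon 5, and for Ikzf5 chr7:131393759-131393821, minus strand, exon 3.
Ikzf1: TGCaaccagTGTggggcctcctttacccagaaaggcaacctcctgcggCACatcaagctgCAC
Ikzf2: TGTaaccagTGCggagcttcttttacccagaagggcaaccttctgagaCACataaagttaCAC
Ikzf3: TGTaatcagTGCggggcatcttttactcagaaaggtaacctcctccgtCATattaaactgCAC
Ikzf4: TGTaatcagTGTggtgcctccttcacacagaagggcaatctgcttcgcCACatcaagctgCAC
Ikzf5: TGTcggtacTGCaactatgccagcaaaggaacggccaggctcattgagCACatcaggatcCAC
Over these 63 bases Ikzf1 was identical to Ikzf2 at 81.0%, to Ikzf3 at 81.0%, to Ikzf4 at 84.1% and to Ikzf5 at 46.0% of positions. Among Ikzf1 to Ikzf4 the identity of bases ranged from 76.2% to 84.1%, and Ikzf5 stood apart from all 4, at 39.7% to 50.8%. Every base difference among Ikzf1 to Ikzf4 was synonymous, so the stretches printed for these 4 encode the same amino acids. The stretches run from the first cysteine codon to the last histidine codon, and residues on either side were not compared. Whether these 4 factors share the contact with drug-bound cereblon was therefore not tested. The study's methods give GRCm38 as the reference, whereas the submitters' processing notes list GRCm39, and the coordinates above hold for GRCm38.

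The 4 libraries held 8242 to 13848 barcodes and 69828595 to 109447030 unique molecular identifiers (UMIs), and 7826 to 13387 cells per mouse were kept. Clustering without the 9 genes gave 13 cell types that had 10 or more cells per mouse, each named from its markers. HSPC stands for hematopoietic stem and progenitor cells, here made of clusters raised in granulocyte and monocyte progenitor markers. A cluster of 2372 cells led by Il1b stayed without a name and lies outside the types. Its marker scores were 0.96 for neutrophils and 0.861 for macrophages. It held 1068 and 815 cells of the vehicle mice but 237 and 252 cells of the PM mice, so the neutrophils tested below lack more such cells from vehicle. Pairs of libraries shared 18 to 41 barcodes. Levels below are CPM, the UMIs of the gene in all cells of a type in a mouse, scaled to 1000000 UMIs of that sum, and they are compared within a gene only, since 3′ counts of different genes are not on 1 scale. In these sums, fewer cells with a transcript and fewer transcripts per cell cannot be told apart. Immunoglobulin UMIs were kept in the totals, which lowers the CPM of other genes in types rich in them, such as plasma cells. How far this moved the order of types was not tested. CAR cells (Cxcl12-abundant reticular), the stromal type that should lack the Ikaros family, had an Ikzf1 UMI in 61 of 170 cells (35.9%), an Ikzf2 UMI in 15 (8.82%) and an Ikzf3 UMI in 0 of 170, which allows up to 2.15% (exact 95% interval, counting error only). Their summed neutrophil markers reached 160230 to 247521 CPM, and median depth was 2340.5 to 3685.5 UMIs. Single-cell shares of Ikzf1 at or below the CAR value are therefore given no reading.

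Ikzf1 had UMIs in every type, in macrophages in 26.4% of cells, a share below that of CAR cells. Its level was 572 ± 85.1 CPM in B cells (mean ± SD, n = 4 mice), 509.6 ± 71.0 in NK cells and 470.4 ± 55.0 in T cells, and neighbours in that order overlapped. It then ran through eosinophil/basophil progenitors at 431 ± 70.0, dendritic cells (DC) at 409 ± 61.5, neutrophils at 326 ± 45.1 and erythroid&prog (red cell precursors) at 303 ± 18.9. By CPM, with immunoglobulin UMIs in the totals, plasma cells were the lowest of the 13 types. They had 114 and 90.7 CPM with vehicle and 105 and 114 CPM with PM. No mouse of any other type reached down to the plasma cell range, the next type being megakaryocytes at 209 ± 46.7 CPM. Within B cells, small pre-B and immature cells carried 876 ± 134 CPM, above pro-B and large pre-B cells at 564 ± 60.5 without overlap, and mature B cells carried 378 CPM on average. Among DC, the plasmacytoid cells held 549 ± 76.4 CPM.

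**Figure D1:**
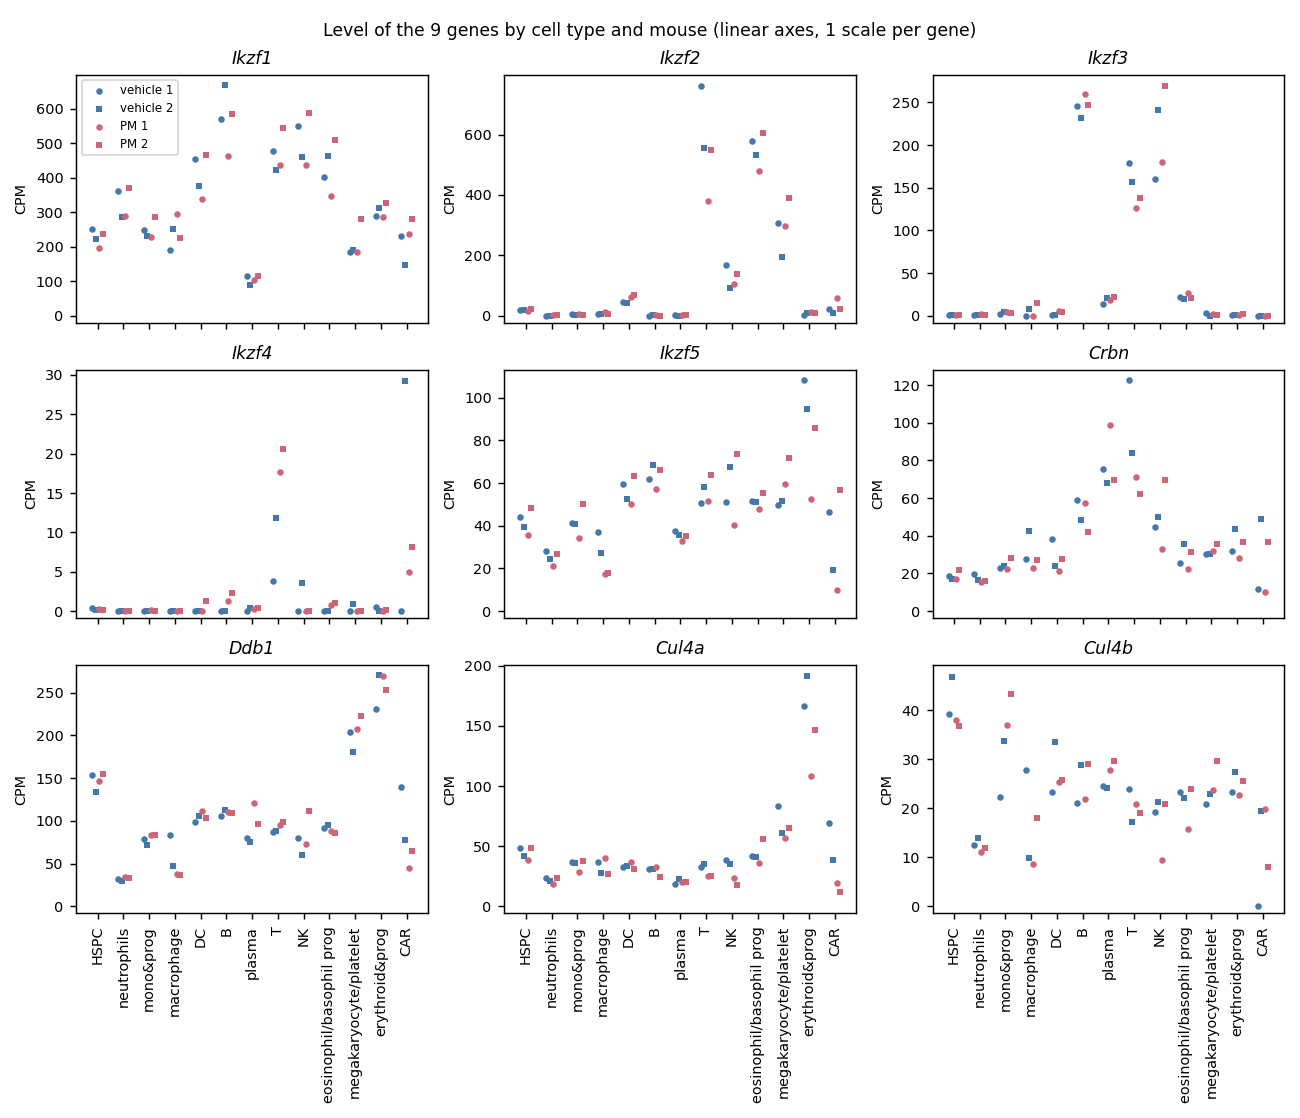
Level in CPM (linear y axis, 1 scale per gene) of the 9 genes in 13 cell types (x axis), 1 point per mouse, blue for vehicle and red for PM. Ikzf1 lies above 90 CPM in every type and mouse, whereas Ikzf2 and Ikzf3 rise above 100 CPM only in a few types and Ikzf4 stays near 0 outside T and CAR cells.

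Ikzf2 was restricted to fewer types. T cells held 562 ± 155 CPM and eosinophil/basophil progenitors 548 ± 54.9 CPM, with overlapping mice. Megakaryocytes followed at 297 ± 80.2 CPM, NK cells at 126 ± 33.9 CPM and DC at 54.3 ± 13.6 CPM, each below the type before it without overlap. B cells, neutrophils and plasma cells were all under 2 CPM on average.

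Finer clusters showed where Ikzf2 sat within these types. Regulatory T cells, the cells Helios is known for, held 2665 and 1185 CPM with vehicle and 1606 and 1930 CPM with PM. That was the highest level of any named cluster. Innate-like T cells, named from gamma-delta receptor genes, Klrc1 and Zbtb16, held 774 ± 137 CPM, and effector/memory CD8 T cells held 83.6 to 105 CPM. An Ikzf2 UMI was seen in 150 of 214 regulatory T cells (70.1%), 373 of 542 innate-like T cells (68.8%) and 13 of 133 CD8 cells (9.77%), the last close to the CAR share. With cells thinned to 1000 UMIs the ranges over mice were 56.2% to 77.8%, 42.0% to 54.0% and 5.00% to 12.8%, in the same order. The thinning left out 3, 2 and 0 cells of vehicle mice and 7, 5 and 2 cells of PM mice. Among eosinophil/basophil progenitors, the cluster led by Prss34 and Mcpt8, genes of basophils and mast cells, held 602 ± 43.7 CPM, against 105 ± 23.6 CPM in the cluster led by the eosinophil genes Prg2 and Prg3. HSPC as a whole held 19.2 ± 3.35 CPM, but their cluster led by Cd34 and Mpo held 119 ± 27.1 CPM. Plasmacytoid DC held 107 ± 20.5 CPM.

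Ikzf3 was a lymphocyte gene in these data. B cells held 246 ± 11.8 CPM, NK cells 213 ± 51.1 CPM and T cells 150.3 ± 23.1 CPM. The next type, eosinophil/basophil progenitors, held 22.4 ± 3.49 CPM, below every lymphocyte sample. Plasma cells held 14.1 and 20.6 CPM with vehicle and 18.5 and 21.7 CPM with PM. In the B lineage, pro-B and large pre-B cells held 62.4 ± 11.6 CPM, small pre-B and immature cells 239 ± 30.03 CPM and mature B cells 282 ± 9.42 CPM, the first below both others in every mouse. Effector/memory CD8 T cells were the highest cluster, at 301 ± 77.5 CPM, and overlapped with mature B cells.

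Ikzf4 was the least abundant of the 9, with 168 UMIs over all types. T cells carried 108 of them, at 13.5 ± 7.40 CPM. Regulatory T cells held 42.6 and 65.3 CPM with vehicle and 95.3 and 132 CPM with PM, above every other named cluster in every mouse. Beyond these, CAR cells averaged 10.6 CPM from 6 UMIs, and the other 11 types stayed under 1 CPM on average. Ikzf5 was spread evenly by comparison, from 24.9 ± 9.26 CPM in macrophages to 85.4 ± 23.7 CPM in erythroid&prog, and every pair of neighbours in its order overlapped.

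**Figure D2:**
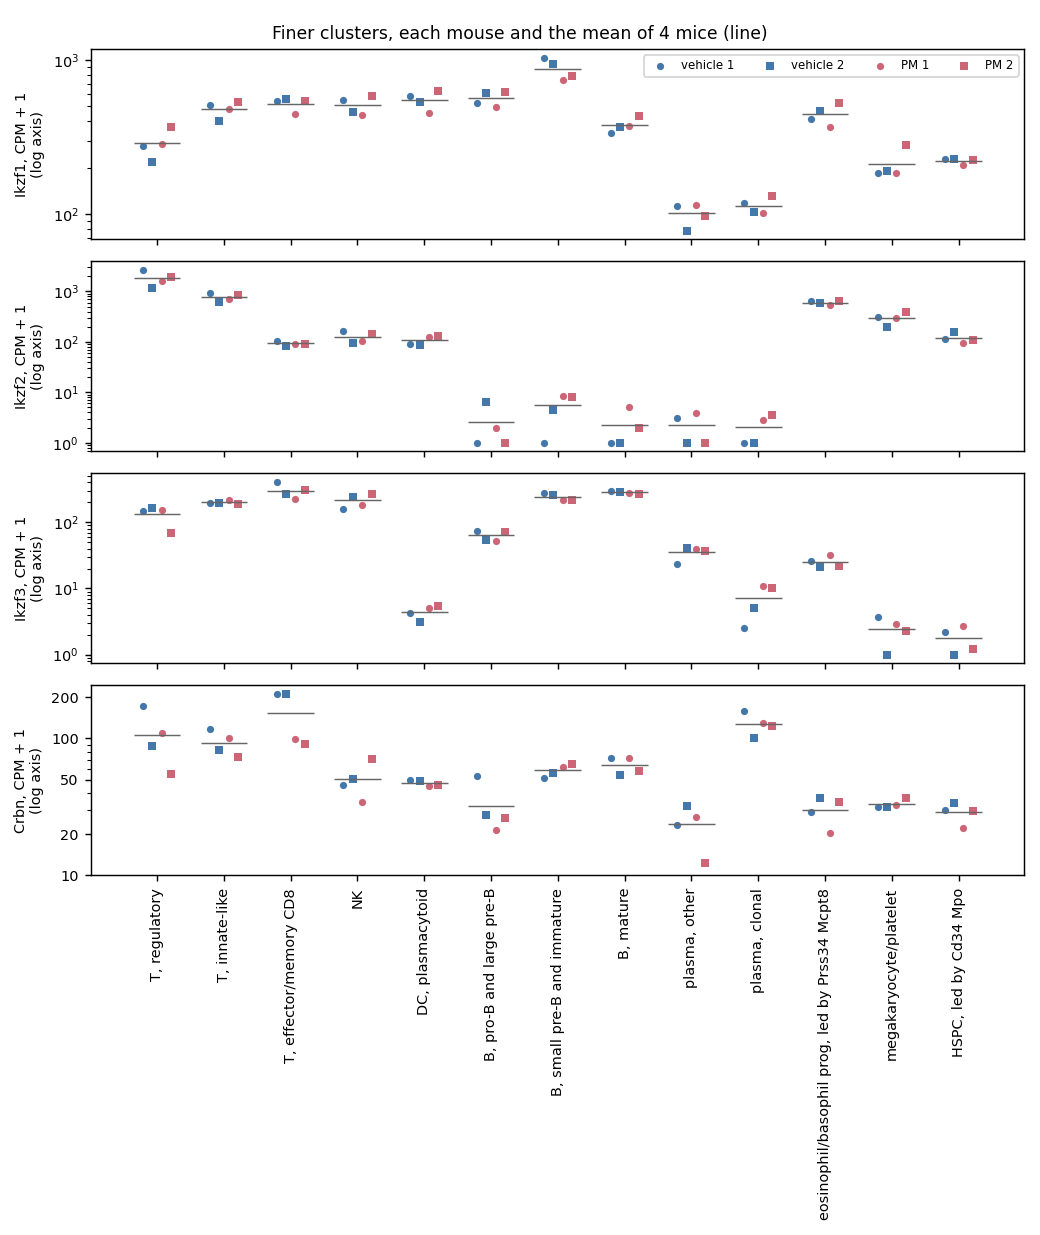
Ikzf1, Ikzf2, Ikzf3 and Crbn in finer clusters (x axis), as CPM + 1 on a log y axis, 1 point per mouse with the mean of 4 mice as a line, blue for vehicle and red for PM. Ikzf2 spans from above 1000 CPM in regulatory T cells to a few CPM in B and plasma cells, and Crbn averages 127 CPM in clonal and 22.7 CPM in other plasma cells. The totals include immunoglobulin UMIs.

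Crbn had its highest levels in T cells, at 85.0 ± 26.5 CPM, and plasma cells, at 78.0 ± 14.2 CPM, which overlapped. B cells held 51.7 ± 7.88 CPM, below every plasma cell sample, and neutrophils were lowest at 16.8 ± 1.86 CPM. Plasma cells fell into clusters with unlike Crbn levels. In one cluster of 171 cells, the same heavy chain gene, Ighg2b, led in 171 of 171 cells and the same light chain gene, Igkv10-96, in 158 of the 161 cells with such a UMI. These clonal cells held 157 and 100.4 CPM of Crbn with vehicle and 129 and 122 CPM with PM. The other 278 plasma cells, of mixed heavy and light chains, held 22.4, 31.1, 25.8 and 11.3 CPM in the same order, all below the clonal cells. Immunoglobulin UMIs were kept in the totals of both clusters, and how far they moved this contrast was not tested. The clonal cells had 1431 to 3716 CPM of the 7 plasma cell markers summed, against 47601 to 68975 CPM in the other plasma cells, so the plasma label rests on weaker markers there. Whether they descend from the injected line was not tested. In Ikzf3 the order was the opposite, with 1.55, 4.05, 9.87 and 9.17 CPM in clonal cells and 22.4, 39.4, 39.1 and 35.8 CPM in other plasma cells. Ikzf1 did not separate the clusters, at 101 to 129 CPM in clonal and 76.95 to 114 CPM in other plasma cells.

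Ddb1, the adaptor, was highest in erythroid&prog at 256 ± 18.7 CPM, megakaryocytes at 203 ± 17.0 CPM and HSPC at 147 ± 9.97 CPM, each apart from the next without overlap. B cells held 109 ± 3.15 CPM, and neutrophils, at 32.3 ± 1.93 CPM, lay below every other type in every mouse. Cul4a shared the top of that order. Erythroid&prog held 153 ± 34.98 CPM, megakaryocytes 66.6 ± 11.6 CPM and HSPC 44.1 ± 5.02 CPM, and plasma cells were lowest at 20.3 ± 1.81 CPM. Its sister scaffold Cul4b differed, with 40.2 ± 4.53 CPM in HSPC, 34.1 ± 8.75 CPM in mono&prog (monocytes and their progenitors) and 24.7 ± 2.14 CPM in erythroid&prog. The HSPC cluster led by F13a1 and Fn1, monocyte genes, held the most Cul4b, 59.6 ± 6.56 CPM.

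Over 27 finer types, log2(CPM + 1) of Ddb1 correlated with that of Ikzf5 (Pearson r = 0.75), Cul4b (0.56) and Cul4a (0.55). Ikzf3 and Crbn had r = 0.69, Ikzf2 and Ikzf4 0.57, and Ikzf1 and Ikzf3 0.52. The lowest value was that of Ikzf3 and Cul4a, at -0.31. These points share libraries, and types differ in depth, so the coefficients describe the order of types only. Among 11026 genes, the 3 most like Ikzf3 were Cd2 (0.91), an adhesion receptor of T and NK cells, Ppp3cc (0.88) and Rasgrp1 (0.87), which activates Ras in lymphocytes. The 3 most like Crbn were Araf (0.90), Rbms2 (0.90) and Foxj3 (0.87). For Ikzf4 they were Tnfsf11 (0.89), the cytokine RANKL, Actn2 (0.85) and Podnl1 (0.85). Gm28112 headed the list of Ikzf2 (0.86), but it lies inside Ikzf2 on the same strand, so reads of the pair cannot be told apart, and Tnik (0.84) and Grik5 (0.82) followed. Stk4 (0.86), a kinase of lymphocyte homeostasis, Ankrd16 (0.82) and Gpbp1l1 (0.81) were nearest to Ikzf1, and Usp7 (0.90), Akap8 (0.89) and Ep400 (0.89) to Ikzf5. Ddb1 had the closest neighbours of all, Serbp1 (0.96), Tcp1 (0.96) and Rad50 (0.95). Cul4a ran with Sppl2b (0.90) and Metap2 (0.89), and Cul4b with Psma7 (0.82), Hspa8 (0.80) and Sdhb (0.79).

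The effect of PM was tested by comparing the 2 PM with the 2 vehicle mice within each type. Of 117 pairs of a gene and a type, 88 passed the filter on low counts. With edgeR's quasi-likelihood test, a pair was called at an adjusted p (Benjamini-Hochberg over all genes of the type) under 0.05 together with a log2 fold change beyond 0.5 either way. 1 pair was called higher and 0 lower, that is 1.14% of the 88, beside 1.67% of all 116660 pairs of a gene and a type. At an unadjusted edgeR p under 0.05 there were 10, beside 12.2% of all pairs. DESeq2 called 0 in either direction. Over all genes it called 521 higher and 136 lower of 18216 in neutrophils, and 1 higher and 0 lower of 16026 in T cells. The values of vehicle and PM mice did not overlap in 30 of the 88, where 42.1% of all pairs did not overlap, and the median log2 fold change was -0.02. In the finer clusters 0 of 151 pairs were called higher and 1 was called lower (0.662%, beside 1.67% over all genes), with 17 at an unadjusted p under 0.05. An exact permutation test of 2 against 2 mice cannot fall below p = 0.33, so no single value can be tested without the shared fit.

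**Figure D3:**
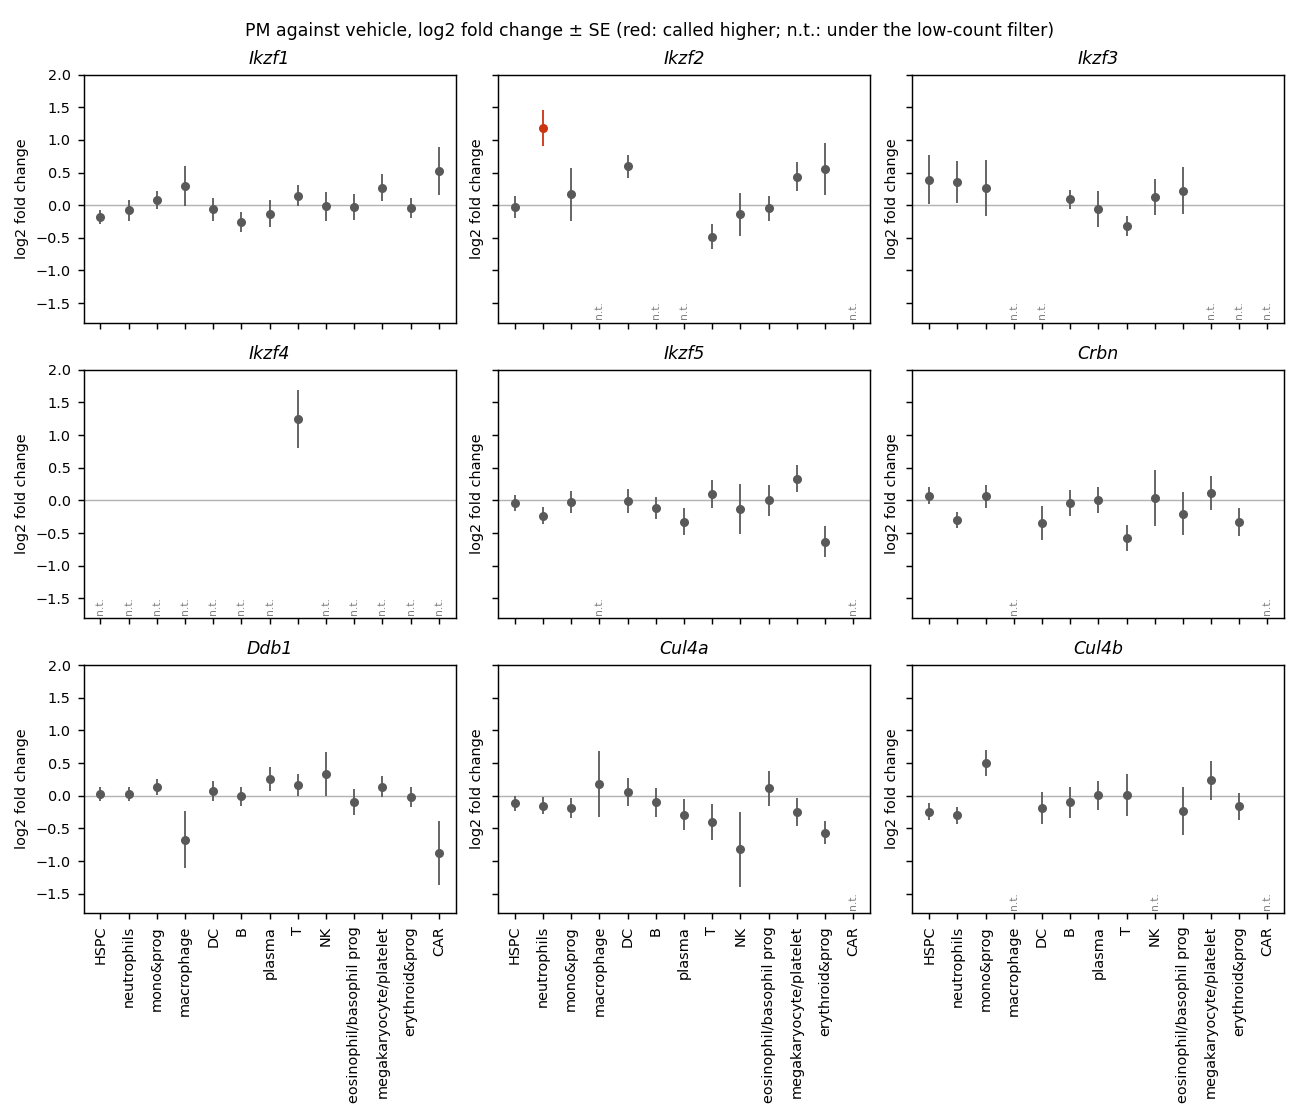
Log2 fold change of PM against vehicle with its standard error (y axis) for the 9 genes in 13 cell types (x axis), from 2 mice per group; n.t. marks pairs under the low-count filter. Ikzf2 in neutrophils (red) is the 1 pair called, and the other 87 points are not called.

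The pair called was Ikzf2 in neutrophils, the largest type, where 7.54% of 11905 genes were called and 6.47% were called higher. Ikzf2 had 35 and 24 UMIs with vehicle and 72 and 72 with PM, that is 0.891 and 0.939 CPM against 1.97 and 2.49 CPM. Both PM mice lay above both vehicle mice, at levels under 3 CPM. The log2 fold change was 1.18 ± 0.28 (SE), with an edgeR adjusted p of 0.0299. Without any 1 of the 4 mice it was 1.07 to 1.30 with adjusted p 0.0507 to 0.139, so the call rested on all 4. With DESeq2 it was 1.16 with an adjusted p of 0.115. With the unnamed Il1b-led cluster counted with neutrophils it was 1.27 (edgeR adjusted p = 0.0319). That fit called 556 genes higher and 98 lower of 11972, against 770 and 128 of 11905 without the cluster. A UMI of Ikzf2 was found in 30 of 5138 and 21 of 3343 vehicle neutrophils and in 69 of 6714 and 64 of 5086 PM neutrophils. That is 0.584% to 1.26% and lies below the CAR share (8.82%). B cells (0.654%) and macrophages (1.85%) lay below it too, so the CAR share was not read as a background level for Ikzf2. Whether these UMIs are background was not tested.

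The neutrophil clusters showed where these UMIs lay. Ikzf2 passed the filter on low counts in the mature neutrophils, where it was not called (2.14 ± 0.60, adjusted p = 0.0566), and not in the early cycling or immature ones, and the clusters that took no stage name were not tested on their own. Neutrophils led by Mmp9 and Mmp8 held 1.04 and 1.95 CPM with vehicle and 3.48 and 4.07 CPM with PM. Mature neutrophils led by Prok2 and Cstdc4 held 0.496 and 0.427 CPM against 2.001 and 1.90 CPM, from 3, 1, 1 and 2 UMIs, while their share of neutrophils was 25.7% and 16.7% against 2.28% and 5.64%. Mature neutrophils led by Il1b and Cstdc4 held 0.773 and 0 CPM against 2.19 and 1.99 CPM, from 1, 0, 13 and 10 UMIs, and made up 6.71% and 12.6% against 32.1% and 31.2% of neutrophils. In the early cycling cluster led by Fcnb the values overlapped, at 0.535 and 0.574 CPM against 0.884 and 0.567 CPM. Markers of some of the types richer in Ikzf2 are given beside it. The 6 megakaryocyte markers summed to 1.78 and 3.91 CPM in vehicle and 3.86 and 4.18 CPM in PM neutrophils. Markers of eosinophil/basophil progenitors were not summed. The 6 NK markers summed to 16.4 and 20.4 CPM in vehicle and 48.5 and 33.1 CPM in PM neutrophils, and the 7 T cell markers to 5.83 and 9.67 CPM against 9.74 and 9.16 CPM. The NK and T cell lists each had 2 genes that passed the filter on low counts, and 1 of the T cell markers was called higher in PM neutrophils. Of the neutrophils with an Ikzf2 UMI, 0 of 30, 4 of 21, 17 of 69 and 6 of 64 also had a UMI of a T or NK marker, that is 0%, 19.0%, 24.6% and 9.38%, where other neutrophils had 10.1%, 11.95%, 16.1% and 13.5%. The part of such RNA in the rise was not tested.

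**Figure D4:**
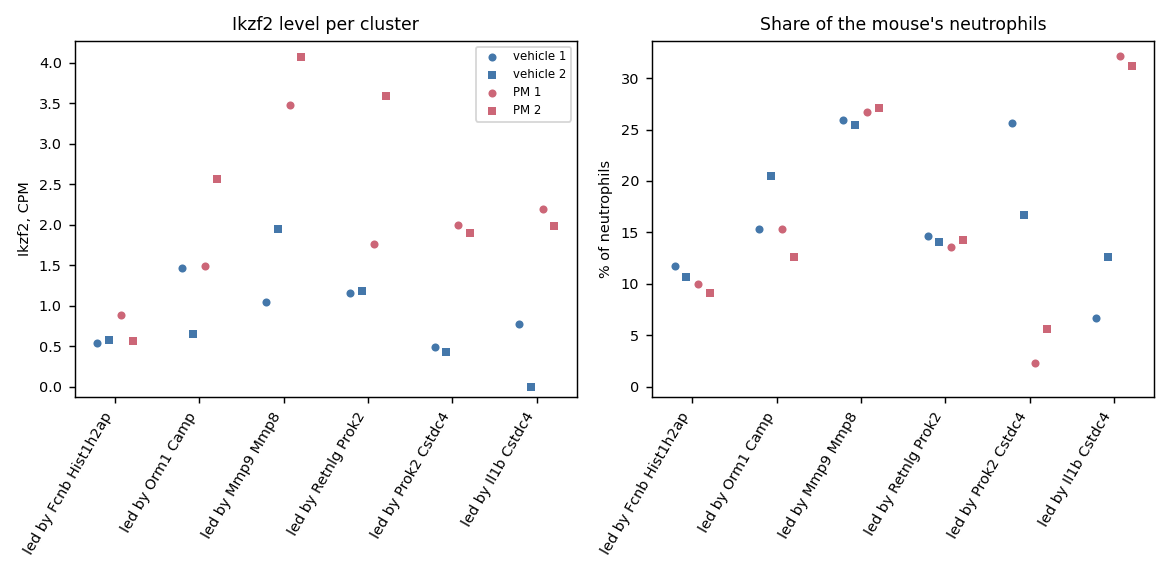
Ikzf2 in 6 neutrophil clusters named by their leading genes (x axes), as CPM (left y axis) and as the cluster's share of the mouse's neutrophils in percent (right panel), 1 point per mouse, blue for vehicle and red for PM. PM mice lie above vehicle mice in 5 of the 6 clusters and overlap with them in the cluster led by Fcnb. In the cluster led by Orm1 and Camp the margin is 1.48 CPM in PM 1 against 1.47 CPM in vehicle 1, from 10 UMIs each. All clusters come from the same mice, so they do not repeat the comparison. Over all pairs of a gene and a broad type 42.1% did not overlap, and the share within these clusters was not counted.

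T cells held 3 pairs with an unadjusted edgeR p under 0.05, where 490 of all 9513 genes were higher and 437 lower at that limit. None of the 3 was called, in a type where 0.0841% of genes were. Ikzf2 was 761 and 556 CPM with vehicle and 381 and 549 CPM with PM, with PM below vehicle (log2 fold change -0.48 ± 0.19, edgeR adjusted p = 0.396). Vehicle 2 and PM 2 differed little. Within regulatory T cells the difference was -0.06 and within innate-like T cells 0.04 on the log2 scale, and both sets of mice overlapped. The make-up of T cells differed between the groups: innate-like cells made up 59.4% and 36.4% of vehicle but 28.4% and 28.7% of PM T cells, and naive cells 3.30% and 12.4% against 31.6% and 28.2%. Ikzf4 was 3.79 and 11.8 CPM against 17.6 and 20.6 CPM, from 3, 11, 53 and 41 UMIs (1.25 ± 0.44, adjusted p = 0.319). Crbn was 123 and 83.9 CPM against 71.5 and 62.2 CPM, again without overlap (-0.58 ± 0.20, adjusted p = 0.302). In effector/memory CD8 T cells Crbn was 211 and 209 CPM against 97.2 and 90.4 CPM, from 14, 15, 12 and 16 UMIs (-1.12 ± 0.41, adjusted p = 0.598). When vehicle 2 was left out, the log2 fold changes in T cells were -0.68 for Ikzf2, 2.35 for Ikzf4 and -0.82 for Crbn. Without vehicle 1 they were -0.26, 0.69 and -0.31, and for Ikzf2 the value was -0.27 without PM 1. The T cell values thus moved with the mouse left out, and fits with 1 mouse in a group are not read as calls.

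Plasma cells are the type that thalidomide analogs are aimed at in patients. Here 0.063% of 9517 genes were called in them, and none of the 9 was. None of the 7 tested had an unadjusted edgeR p under 0.05. DESeq2 called 0 of them, and over all genes it called 6 higher and 11 lower of 16493. For Ikzf1 the log2 fold change was -0.13 ± 0.21 over all plasma cells (edgeR adjusted p = 0.967) and 0.02 ± 0.21 in the clonal cells (0.991). Crbn had 0.01 ± 0.20 (0.999) and -0.02 ± 0.21 (0.989). In the other plasma cells Crbn was -1.32 to -0.39 over the omissions of 1 mouse, and it was not called there with all mice. Clonal cells made up 33.3% and 26.5% of vehicle and 48.7% and 32.6% of PM plasma cells. The part of these shares in the value over all plasma cells was not tested. Ikzf3 had -0.05 ± 0.28 over all plasma cells (0.991). In clonal cells the 4 mice gave 1, 5, 32 and 11 UMIs of Ikzf3, and both PM mice lay above both vehicle mice (1.56 ± 0.65, adjusted p = 0.435). Markers of types rich in Ikzf3 were, in the same order, 0, 0.809, 12.65 and 13.3 CPM for the 6 NK genes, 0, 0.809, 5.86 and 3.34 CPM for the 7 T cell genes and 192, 167, 209 and 235 CPM for the 6 B cell genes, and their part in the Ikzf3 value was not tested. Ikzf5 went the other way there, with 63.6 and 54.2 CPM in vehicle and 33.9 and 44.2 CPM in PM mice (-0.64 ± 0.25, adjusted p = 0.381), and was not called. The 21 to 92 clonal cells per mouse limit what could be seen.

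B cells had 6% of 10592 genes called, and none of the 9, with 0 at an unadjusted edgeR p under 0.05. DESeq2 called 0 of the 9, and over all genes it called 48 higher and 117 lower of 16595. Ikzf1 was 569.5 and 670.3 CPM with vehicle and 463 and 585 CPM with PM, with overlap (log2 fold change -0.26 ± 0.15, adjusted p = 0.379). Small pre-B and immature cells, the stage richest in Ikzf1, made up 20.8% and 33.7% of vehicle and 3.81% and 7.21% of PM B cells. Within that stage Ikzf1 was 1031 and 942 CPM against 746 and 784 CPM (-0.29 ± 0.19, adjusted p = 0.53). Ikzf3 in B cells differed by 0.09 ± 0.14 (adjusted p = 0.795).

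In erythroid&prog, where 0.2% of 10502 genes were called, the scaffold gene Cul4a was 167 and 191.5 CPM with vehicle and 109 and 147 CPM with PM (log2 fold change -0.57 ± 0.18, adjusted p = 0.243). Both PM mice were below both vehicle mice. The late erythroid cluster led by Hbb-bs and Hba-a1 gave the 1 call among finer clusters: Cul4a was 152 and 206 CPM in vehicle and 61.0 and 42.6 CPM in PM mice, from 19, 23, 17 and 15 UMIs. It fell by 1.90 ± 0.40 on the log2 scale (edgeR adjusted p = 0.00632) in a cluster of 24, 27, 53 and 61 cells where 15.4% of 2350 genes were called. DESeq2 gave -1.81 with an adjusted p of 0.0858. In the same cluster the 10 erythroid markers summed to 294624 and 331493 CPM in vehicle and 185374 and 169459 CPM in PM mice, and the 10 neutrophil markers to 170357 and 129394 CPM against 301645 and 274696 CPM. Ikzf1 there was 160 and 116 CPM against 233 and 290 CPM and was not called (0.81 ± 0.32, adjusted p = 0.117). The part of the neutrophil RNA in these differences was not tested. Ikzf5 in erythroid&prog was 108 and 94.95 CPM against 52.7 and 85.6 CPM (-0.63 ± 0.24, adjusted p = 0.304). Without the filter on low counts it passed the test (-0.61, edgeR adjusted p = 0.0255), in a fit that called 407 genes higher and 269 lower of 15929.

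Among myeloid cells, Cul4b in mono&prog was 22.3 and 33.8 CPM with vehicle and 36.9 and 43.2 CPM with PM (log2 fold change 0.50 ± 0.19, adjusted p = 0.238), in a type where 2.68% of 10820 genes were called. Without vehicle 2 it was 0.79 and without vehicle 1 it was 0.225, so the value moved with the vehicle mouse left out. In neutrophils Cul4b and Crbn each differed by -0.30 ± 0.13 on the log2 scale (adjusted p = 0.167 and 0.172). Ikzf2 in DC was 44.7 and 41.3 CPM against 61.1 and 70.2 CPM (0.59 ± 0.18, adjusted p = 0.28), with 0.429% of 10015 genes called. Ddb1, tested in all 13 types, had no unadjusted p under 0.05 in any.

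Whether the effect of PM differed between types was asked with 1 fit over the 13 types. Of 13448 genes 899 (6.69%) passed at an adjusted p under 0.05, and 0 of the 9. Ikzf2 came nearest (edgeR F = 3.04, adjusted p = 0.0743), followed by Ikzf5 (adjusted p = 0.163) and Cul4b (0.234), the 3 with an unadjusted p under 0.05. Without the filter on low counts Ikzf2 passed (adjusted p = 6.18e-08), and leaving out a mouse gave 0.0799 to 0.737. In the fit without the filter 2313 of 22196 genes passed. In the fit with the filter, the call in neutrophils was not shown to differ from the values in the other types, which ran from -0.48 in T cells to 0.59 in DC.

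The genes around the ligase were taken as lists. The first held 12 genes that build the CRL4 ligase, charge it with Nedd8 or otherwise act with or on it, such as Rbx1, Ube2m and Cand1. Of its 142 tested pairs 0 were called, beside 1.67% of all pairs, with 4 at an unadjusted edgeR p under 0.05. DESeq2 called 0 of them. The median log2 fold change of these genes was -0.20 in neutrophils and 0.11 in plasma cells, where those over all genes were -0.002 and 0.003. The COP9 signalosome, which removes Nedd8 from cullins, had 3 calls in 117 pairs (2.56%, beside 1.67% of all pairs). Of these, 2 were in neutrophils, where 1.08% of genes were called lower. Cops8 was 46.8 and 48.1 CPM in vehicle and 32.4 and 37.6 CPM in PM neutrophils (-0.54 ± 0.10, edgeR adjusted p = 0.0122). Cops9 was 193 and 198 CPM against 120 and 143 CPM (-0.67 ± 0.12, adjusted p = 0.00899), and within the mature neutrophils it fell by 1.03 ± 0.15 (adjusted p = 0.00623). Cops8 was called within the mature neutrophils too (-0.82 ± 0.21, adjusted p = 0.0398), and not within the early cycling (-0.38 ± 0.12, 0.134) or the immature ones (-0.33 ± 0.12, 0.169). The mature neutrophils joined the clusters led by Prok2 and by Il1b, whose shares differed between the groups as given above, and the part of that shift in values within the mature neutrophils was not tested. Cops7a rose in B cells, from 18.2 and 19.0 CPM to 32.7 and 33.2 CPM (0.80 ± 0.23, adjusted p = 0.0418), but was not called within mature cells (0.28 ± 0.35, adjusted p = 0.828) or within pro-B and large pre-B cells (1.11 ± 0.40, adjusted p = 0.162). The call of Cops8 was lost without vehicle 1, vehicle 2 or PM 1 (-0.48 to -0.59 over the 4 omissions), that of Cops9 without vehicle 1 (-0.59 to -0.75) and that of Cops7a without vehicle 2, PM 1 or PM 2 (0.78 to 0.85). Cops8 also fell short of the log2 limit with library totals (-0.44) and with the unnamed Il1b-led cluster counted with neutrophils (-0.48), and Cops7a lost its call with DESeq2 (0.81, adjusted p = 0.663) and with the crossed replicate block (0.81, 0.0871).

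Of 16 other substrate receptors of Ddb1, 1 of 173 pairs was called (0.578%, beside 1.67% of all pairs). Dtl, which drives destruction of replication licensing factors, was 14.6 and 15.6 CPM in vehicle and 9.74 and 12.8 CPM in PM neutrophils (-0.52 ± 0.14, edgeR adjusted p = 0.047). It was -0.52 ± 0.18 in early cycling neutrophils (adjusted p = 0.186), 0.28 ± 0.34 in immature ones (adjusted p = 0.727) and 1.76 ± 0.54 in mature ones (adjusted p = 0.0729), and the call was lost without vehicle 1, vehicle 2 or PM 1 (-0.38 to -0.67 over the 4 omissions). It was also lost with DESeq2 (-0.55, adjusted p = 0.0811), library totals (-0.42, 0.104), the unnamed Il1b-led cluster counted with neutrophils (-0.42, 0.113) and the members kept in the clustering (-0.48, 0.0728). Of 10 other proteins known to be degraded through drug-bound cereblon in human cells, 1 of 98 pairs was called. That is 1.02%, beside 1.67% of all pairs and 6.47% of genes called higher in neutrophils. The pair called was Zbtb16, the factor PLZF of innate-like lymphocytes, in neutrophils, at 0.535 and 0.744 CPM in vehicle and 2.76 and 2.49 CPM in PM mice (1.98 ± 0.30, adjusted p = 0.00399). Like Ikzf2, it lay at a few CPM, without overlap between the groups. Zbtb16 was also called within the mature neutrophils (2.10 ± 0.39, adjusted p = 0.0156), and leaving out a mouse gave 1.73 to 2.19 and kept its call.

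The partners that Ikaros brings to DNA, 15 genes of the NuRD, Sin3 and CtBP complexes, had 3 of 181 pairs called (1.66%, beside 1.67% of all pairs), and all 3 were Chd3, a chromatin remodeler of NuRD. In neutrophils it was 0.789 and 0.391 CPM in vehicle and 5.42 and 5.95 CPM in PM mice (3.09 ± 0.29, edgeR adjusted p = 0.000309). In mono&prog it was 14.2 and 20.4 CPM against 30.5 and 32.1 CPM (0.86 ± 0.20, adjusted p = 0.0474), and in B cells 99.6 and 91.1 CPM against 142 and 165 CPM (0.70 ± 0.15, adjusted p = 0.0072). Chd3 also rose within mature B cells (0.83 ± 0.21, adjusted p = 0.00845) and within small pre-B and immature cells (1.22 ± 0.32, adjusted p = 0.0188), and it was not called within pro-B and large pre-B cells (0.40 ± 0.26, adjusted p = 0.496). In mono&prog its call was lost without vehicle 1, PM 1 or PM 2 (0.61 to 1.10 over the 4 omissions), with DESeq2 (0.84, adjusted p = 0.218), with called doublets left out (0.83, 0.0534) and with the replicate block (0.87, 0.0767). In B cells it was lost without vehicle 2 (0.62 to 0.79) and with DESeq2 (0.69, adjusted p = 0.114), whereas in neutrophils it was kept in all 4 (2.73 to 3.75). Of the 6 deacetylase genes that PM is aimed at, 1 of 61 pairs was called (1.64%, beside 1.67% of all pairs and 6% of genes in B cells). Hdac8 fell in B cells, from 19.6 and 39.8 CPM to 10.6 and 15.8 CPM (-1.40 ± 0.29, adjusted p = 0.00802). Without vehicle 2 the difference was -0.605 and not called, nor was it called with DESeq2 (-1.27, adjusted p = 0.264), and within pro-B and large pre-B cells it was -1.74 ± 0.47 (adjusted p = 0.0502).

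The 14 genes known to lie downstream of Ikaros and Aiolos had 7 of 87 pairs called (8.05%, beside 1.67% of all pairs). They lay in B cells and neutrophils, where 6% and 7.54% of genes were called. In B cells, where 2.85% of genes were called higher and 3.15% lower, 4 were lower and 1 was higher. Rag2 was 112 and 110.4 CPM in vehicle and 21.9 and 22.4 CPM in PM mice (-2.33 ± 0.17, edgeR adjusted p = 2.99e-07), and its partner in receptor gene rearrangement, Rag1, was 173 and 310.4 CPM against 65.3 and 61.7 CPM (-1.98 ± 0.25, adjusted p = 0.00366). Irf4, a factor of B cell and plasma cell maturation, was 215 and 235 CPM against 104 and 120.3 CPM (-1.02 ± 0.15, adjusted p = 0.000265). Il7r, the receptor for the growth signal of B progenitors, was 293 and 339 CPM against 128 and 147 CPM (-1.22 ± 0.15, adjusted p = 7.12e-05). Bcl2, which protects cells from death, rose from 104 and 76.8 CPM to 173 and 132 CPM (0.82 ± 0.18, adjusted p = 0.00973), a call lost without vehicle 2 or PM 1 (0.57 to 1.02 over the 4 omissions) and with DESeq2 (0.79, adjusted p = 0.0957). The calls of Rag1, Rag2, Irf4 and Il7r were kept in each omission.

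These B cell values moved together with the fall of small pre-B and immature cells and the rise of mature cells from 49.0% and 27.9% to 65.0% and 56.3% of B cells, and Rag1, Rag2 and Il7r were also among the markers that named those stages. Within pro-B and large pre-B cells, Rag2 remained lower (-1.60 ± 0.27, adjusted p = 0.00191), as did Rag1 (-0.99 ± 0.26, adjusted p = 0.0469). Within small pre-B and immature cells the differences were -0.48 ± 0.27 for Rag2, 0.05 ± 0.24 for Rag1 and 0.44 ± 0.19 for Il7r, none called. Irf4 was called in none of the 3 named stages, at -0.75 ± 0.22 in pro-B and large pre-B cells (edgeR adjusted p = 0.068) and 0.07 ± 0.24 in mature cells. Bcl2 differed by 0.29 ± 0.16 in mature cells (adjusted p = 0.437). B cells that took no stage name made up 17.4% and 24.2% of vehicle and 23.45% and 27.6% of PM B cells. They were not tested on their own.

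In neutrophils 2 downstream genes were called higher, as were 6.47% of all genes there. Cdk6, a cell cycle kinase, was 24.7 and 29.5 CPM in vehicle and 46.3 and 44.1 CPM in PM mice (0.65 ± 0.12, edgeR adjusted p = 0.0105), and it rose within the immature neutrophils (1.05 ± 0.15, adjusted p = 0.00179), but was not called within the early cycling (0.44 ± 0.11, adjusted p = 0.0663) or the mature ones (0.66 ± 0.28, 0.173). Myc was 0.942 and 0.978 CPM against 2.16 and 3.28 CPM (1.39 ± 0.29, adjusted p = 0.0176), and it was called in none of the 3 stages (adjusted p 0.119 to 0.251). The 8 HSPC markers summed to 22.7 and 29.1 CPM in vehicle and 37.2 and 41.7 CPM in PM neutrophils, 2 of the 7 that passed the filter being called higher, and the part of such RNA in the Myc value was not tested. The call of Cdk6 was lost without vehicle 1 (0.53 to 0.77 over the 4 omissions), and that of Myc without vehicle 1 or PM 2 (1.13 to 1.63).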

How the data were processed

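Single-cell RNA libraries from the marrow of 4 mice, 2 given vehicle and 2 given PM, were analysed from the UMI count matrices the authors deposited, which Cell Ranger had made without further normalization. The study's methods name GRCm38 as reference and the submitters' processing notes GRCm39. A barcode was kept from 300 genes upwards if no more than 20% of its UMIs were mitochondrial. Doublets, scored by simulation in each library (1.89% to 5.51% called, with 27.8% to 45.0% of simulated doublets recovered), were left out only in an alternative. Cells were clustered with scanpy 1.11.5 and leidenalg 0.10.2 on 2500 variable genes without the 9 members and 30 principal components at resolution 1. A cluster took a name where at least 3 markers of 1 type were raised, by 0.4 over the next type, in at least 20 cells of which at most 50% were doublets. Where the margin was smaller, the type with more markers among the 10 leading genes gave the name, which made the early cycling cluster (2091 cells, scores of 1.725 for granulocyte and monocyte progenitors and 1.685 for neutrophils) neutrophils, and these rules were set after the clusters were seen. A group of endothelial cells had too few cells in vehicle 1.

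Counts of each type were summed per mouse and tested with edgeR 4.0.16 in R 4.3.3, with TMM factors, its filter on low counts and Benjamini-Hochberg adjustment over all genes of the type. The test was tried on simulated counts. Sources do not say whether the mice shared a cage, litter or loading day, so p-values measure the spread between these 4 libraries. The depth of a sum limits its precision, and intervals cover counting error only. Alternatives were DESeq2 1.42.0 (the study's own test), other scalings, no filter on low counts, stricter cells, doublets or immunoglobulin genes left out, each mouse left out, a replicate block, and clustering with the members. The members and gene lists were chosen with earlier results of these data known. Every gene of the lists that was called in a broad type is named. The genes most like a member were the 3 with the highest Pearson correlation of log2(CPM + 1) across the finer types, among genes reaching 20 CPM, and 1 of these genes is not reported here. Zinc finger sequences were read from GRCm38 with its GENCODE annotation. No separate protein sequences were used, and the fingers were found by translating the coding DNA.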

Additional observations from a re-analysis of the deposited data

How the results depend on the processing

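Of the 88 pairs of a member and a broad type, 1 was called higher and 0 lower. The higher call was lost with DESeq2 (0 higher) and in each fit without 1 mouse, where the log2 fold change was 1.07 to 1.30. Without the filter on low counts 1 pair was called lower (Ikzf5 in erythroid&prog) and 1 member, Ikzf2, differed between types, against 0 with the filter. These fits without the filter called more of all genes too, as given above. Over 15 alternatives and 1238 values for these pairs, 5 calls were gained, 5 were lost and 0 were reversed. Without vehicle 2, calls were also gained in finer clusters for Crbn in mature neutrophils (-0.70) and for Cul4b (0.74) and Ikzf3 (2.91) in classical monocytes. Without PM 2 they were gained for Cul4a (-0.76) and Ikzf5 (-0.997) in the erythroid cluster led by Car1 and Car2, and with library totals for Ikzf2 in mature neutrophils (2.16). Fits without a mouse left 1 mouse in a group, and calls gained in them are not read as results about the members. Cul4a in the late erythroid cluster kept its call without each mouse (-2.17 to -1.47). Levels were recomputed in 2 alternatives only, stricter cells and doublets left out, and stayed within 1 SD in 233 of 234 values. Thinning, which takes UMIs away from deeper cells, moved 100 of 117 shares of cells. Of the 16 pairs of a list gene and a broad type that were called, 6 kept their call under every alternative run and 0 were reversed.

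Equal replicate numbers are not known to mark shared handling. Deviations of same-numbered mice correlated at -0.147 to 0.234 over the 13 types. With so few mice per group, this check cannot show whether the numbers pair the mice. With the replicate block, 1 member pair was called higher and 0 lower, and calls over all genes went from 770 higher and 128 lower to 738 and 104 in neutrophils and from 19 and 2 to 0 and 0 in erythroid&prog. A crossed block, added after the negative correlation in neutrophils was seen, gave 1181 and 189 calls in neutrophils and 113 and 207 in erythroid&prog.

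The groups held 2 mice each, and 88 of the 117 pairs of a member and a broad type had enough UMIs for a test. The cause of the lost and gained calls was not tested. No batch is named for the libraries, so handling and treatment cannot be told apart.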
